A study of Danio rerio with 2 samples.

Results

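The genes described here are 38 gene symbols of the DNA replication machinery that is used in S phase, the part of the cell cycle in which the genome is copied. The symbols were chosen by function, with earlier results of these data known. All 38 were found in the deposited gene table, where *rrm2* stood for 2 gene identifiers, so the set held 39 of 32057 genes. The transcripts of single cells, captured in droplets, had been sequenced from whole brains of zebrafish larvae at 3 days post-fertilization (dpf). There were 2 libraries, 1 from siblings with the genotype wt and 1 from homozygous *rb1*smu2/smu2 mutants. Each mRNA molecule carried a unique molecular identifier (UMI), and the level of a gene is given as UMIs per 1000000 UMIs of the cells concerned (CPM). The number of larvae pooled into each library was not given in the sources used here, and with 1 library per genotype the genotype and the preparation cannot be told apart.

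DNA replication is prepared in G1, when the origin recognition complex, *cdc6* and *cdt1* load the ring-shaped MCM helicase onto origins. In S phase the helicase is activated by *cdc45* and the GINS complex, primase and the DNA polymerases copy both strands, and the sliding clamp *pcna* holds the polymerases on the template. A supply of deoxynucleotides, the joining of Okazaki fragments, the assembly of new nucleosomes and the copying of DNA methylation go along with synthesis. In the larval brain these genes are best known from dividing progenitors, and differentiated neurons usually have little of their mRNA. The retinoblastoma protein encoded by *rb1* is known as a repressor of genes for entry into S phase. *elavl3* encodes an RNA-binding protein that is commonly used as a marker of young and mature neurons, so cells with at least 1 *elavl3* UMI were compared with cells without any.

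After filtering, 7539 sibling cells with a median of 3315 UMIs and 7873 mutant cells with a median of 3595 UMIs remained. *elavl3* was detected in 3323 sibling cells (44.1%) and in 3862 mutant cells (49.1%), although the label gave the cell type as neuron for both. Their median depths were 3504 and 3630 UMIs, against 3023.5 and 3522 UMIs in the 4216 sibling and 4011 mutant cells without *elavl3*. Cells with markers of retina, mesenchyme and cartilage were present in both libraries. The libraries shared 14 cell barcodes among the retained cells. *rb1* itself had 174 UMIs in each library, at 6.05 CPM in the sibling library and 5.46 CPM in the mutant one. These 3′ counts do not check the mutant label, because the sources used here do not say where the lesion lies relative to the counted end.

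Over all retained cells the replication genes together stood at 1915 CPM in the sibling library and 3042 CPM in the mutant library. The mutant to sibling ratio of the sum was 1.59, with a 95% counting interval from 1.57 to 1.61. Of the 39 genes, 38 had the higher CPM in the mutant library and 36 had an interval wholly above 1, against 35.1% and 16.1% of the 13567 genes with at least 100 UMIs. In that comparison 19 of the 39 reached a ratio of at least 1.5, while 4.36% of these genes did so, and 4 of the 39 reached 2-fold, against 1.25%. 1 of the 39, an *rrm2* identifier, was at least 1.5-fold lower, against 13.5% of these genes. No test was possible with 1 library per genotype, and all intervals here cover counting error only. The median ratio over all genes was 0.92, which is -0.12 on the log2 scale, and the sum was 1.73-fold higher relative to that median.

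The ratio was larger in cells with *elavl3* than in cells without it, a difference that could not be tested with 1 library per genotype. With *elavl3* the summed level was 951 CPM (95% interval 933 to 968) in the sibling library and 3131 CPM (3103 to 3160) in the mutant library. The ratio was 3.29 (3.23 to 3.36). In cells without *elavl3* the sum was 2584 CPM in the sibling library and 2965 CPM in the mutant one, a ratio of 1.15 (1.13 to 1.16). Sibling cells with *elavl3* thus had 0.37 times the level of sibling cells without it, whereas in the mutant library this ratio was 1.06. Within the sibling library 37 of the 39 genes were lower in cells with *elavl3*, with intervals wholly below 1, and none was higher, while of all genes 33.5% were lower and 49.0% higher by that criterion. Within the mutant library 11 of the 39 were lower and 9 were higher, beside 31.4% and 46.8% of all genes.

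Counted gene by gene, 37 of the 38 replication genes with at least 100 UMIs in cells with *elavl3* were at least 1.5-fold higher in the mutant library, compared with 6.46% of all 10050 genes. As many as 34 were at least 2-fold higher, against 3.66% of all genes. The gene below that minimum was *orc1*, with 8 sibling and 37 mutant UMIs, and none of the 38 was at least 1.5-fold lower, against 17.6% of all genes. In cells without *elavl3* 4 of 39 were at least 1.5-fold higher, compared with 3.45% of all 11326 genes. These were *lig1*, *prim2*, *orc1* and the *rrm2* identifier ENSDARG00000078069. The other *rrm2* identifier was the only one of the 39 at least 1.5-fold lower there, against 9.40% of all genes, and none was 2-fold higher, against 0.742%. The median ratio of the 39 genes was 2.96 in cells with *elavl3* and 1.13 in cells without it, beside all-gene medians of 0.89 and 0.95.

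**Figure D1:**
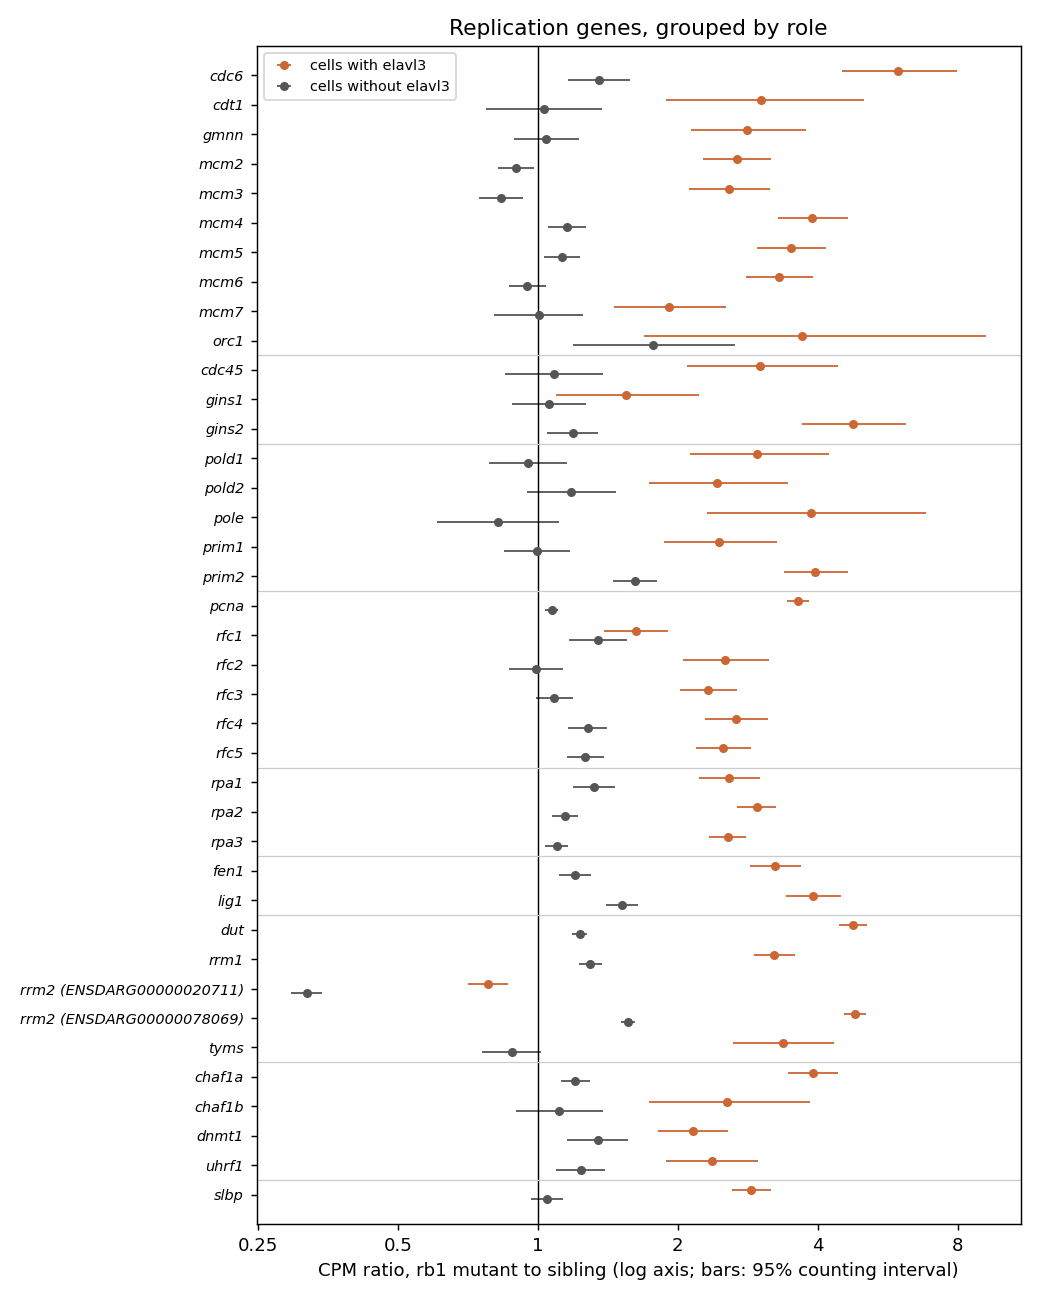
The CPM ratio of the *rb1* mutant to the sibling library is plotted for each of the 39 genes on a log axis, in cells with *elavl3* (orange) and without it (grey), grouped by role, with bars for the 95% counting interval. All points but that of *rrm2* ENSDARG00000020711 lie to the right of 1 in cells with *elavl3*, and the highest is *cdc6* at 5.94.

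Among the genes of origin licensing, the step that loads the helicase, the sum of 10 genes was 89.8 CPM in sibling and 290.3 CPM in mutant cells with *elavl3*, a ratio of 3.23. In cells without *elavl3* the sums were 316 and 324 CPM, a ratio of 1.02 (0.99 to 1.06). *cdc6*, the ATPase that helps to load MCM, had the highest ratio of all members in cells with *elavl3*. It had 57 UMIs (4.83 CPM) in the sibling and 424 UMIs (28.7 CPM) in the mutant library, a ratio of 5.94 (4.50 to 7.98). Without *elavl3* its levels were 17.4 and 23.5 CPM, a ratio of 1.35, so the mutant library had similar *cdc6* levels in both kinds of cell and the sibling library did not.

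The MCM genes encode the subunits of the helicase ring, and they did not move as a unit in cells without *elavl3*. *mcm5* was at 14.6 CPM in sibling and 51.1 CPM in mutant cells with *elavl3*, a ratio of 3.50 (2.96 to 4.16), and at 55.1 and 62.2 CPM in cells without it, a ratio of 1.13. *mcm2* was at 15.6 and 41.7 CPM in cells with *elavl3*, a ratio of 2.67 (2.26 to 3.17), and at 61.8 and 55.6 CPM in cells without it, a ratio of 0.90 (0.82 to 0.98). *mcm3* behaved like *mcm2*, with ratios of 2.58 (2.12 to 3.15) with *elavl3* and 0.83 (0.75 to 0.93) without it. All 6 MCM genes were higher in the mutant library in cells with *elavl3*, and *mcm7* had the smallest ratio of them at 1.92. The values of *mcm2* and *mcm3* below 1 were not stable, since both were above 1 when all deposited barcodes were used (1.003 and 1.04) or when every cell was thinned to 1000 UMIs (1.33 and 1.11).

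The remaining licensing genes had lower counts. *cdt1*, which loads MCM together with *cdc6*, and *gmnn*, which encodes the Cdt1 inhibitor geminin, had ratios of 3.02 and 2.82 in cells with *elavl3*. Without *elavl3* their ratios were 1.03 and 1.04, with intervals that spanned 1. *orc1*, a subunit of the origin recognition complex, had ratios of 3.69 (1.69 to 9.18) and 1.77 (1.19 to 2.66). The summed levels of the loading factor and its inhibitor were therefore both higher in mutant cells with *elavl3*. Whether they were detected in the same cells was not tested.

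Of the 3 genes of helicase activation, *gins2*, a subunit of the GINS complex, rested on 72 sibling and 429 mutant UMIs in cells with *elavl3*, at 6.11 and 29.1 CPM, a ratio of 4.76 (3.70 to 6.20). *gins1*, another subunit of the same complex, was at 4.32 and 6.71 CPM, and its ratio of 1.55 (1.095 to 2.22) was among the lowest. These subunits of 1 complex thus differed in ratio by more than their counting intervals. *cdc45*, the helicase partner, had a ratio of 3.01 with *elavl3* and 1.08 without it.

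For the genes of polymerases and primase the sum was 31.6 CPM in sibling and 106 CPM in mutant cells with *elavl3*, a ratio of 3.36, and the ratio was 1.25 in cells without it. *prim2*, the large primase subunit, was at 16.4 and 64.7 CPM in cells with *elavl3*, a ratio of 3.95 (3.38 to 4.64). It was also among the few members at least 1.5-fold higher without *elavl3*, at 31.0 and 50.1 CPM, a ratio of 1.62 (1.45 to 1.81). *prim1*, the catalytic subunit, was at 5.94 and 14.6 CPM with *elavl3*, a ratio of 2.45, and at 17.6 and 17.5 CPM without it, a ratio of 1.00 (0.85 to 1.17). *pold1*, *pold2* and *pole*, which encode subunits of the replicative polymerases, had ratios of 2.96, 2.43 and 3.86 with *elavl3* and intervals that spanned 1 without it.

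The clamp and its loader contributed 23.8% of all replication UMIs in the sibling library against 22.5% in the mutant one. *pcna* was at 128 CPM in sibling and 466 CPM in mutant cells with *elavl3*, a ratio of 3.63 (3.43 to 3.84), and it was at 423 and 454 CPM without *elavl3*, a ratio of 1.07 (1.04 to 1.11). *pcna* was detected in 7.76% of sibling and 28.6% of mutant cells with *elavl3*. *rfc5*, a subunit of the loader, was at 24.0 and 60.2 CPM with *elavl3*, a ratio of 2.51, and at 50.1 and 63.4 CPM without it, a ratio of 1.26. The loader subunits *rfc2*, *rfc3* and *rfc4* ranged from 2.32 to 2.67 with *elavl3*. *rfc1*, the large subunit, was lower at 1.62 (1.39 to 1.91), with levels of 20.1 and 32.7 CPM, and its sibling level with *elavl3* was close to the 19.5 CPM without it. *rfc1* was thus a member that hardly separated sibling cells with and without *elavl3*.

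The RPA complex coats exposed single-stranded DNA. In cells with *elavl3*, *rpa3* was at 51.0 CPM in the sibling library and 130 CPM in the mutant one, a ratio of 2.56, and *rpa2* was at 45.1 and 133 CPM, a ratio of 2.96. Their ratios without *elavl3* were 1.098 (1.04 to 1.16) and 1.14 (1.07 to 1.22). The genes of this complex together had a ratio of 2.72 in cells with *elavl3*, the smallest of the 9 roles. Okazaki fragment joining had a ratio of 3.54. *fen1*, the flap nuclease, was at 27.1 and 87.6 CPM, a ratio of 3.24, and *lig1*, the ligase, was at 21.8 and 85.2 CPM, a ratio of 3.91 (3.41 to 4.49). *lig1* was also higher without *elavl3*, at 60.2 and 91.5 CPM, a ratio of 1.52 (1.40 to 1.65).

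Nucleotide supply was the role with the most UMIs and the highest ratio in cells with *elavl3*, 3.72 (3.60 to 3.86), with sums of 328 CPM in the sibling library and 1222 CPM in the mutant one. *dut*, the dUTPase that keeps uracil out of DNA, was at 85.2 and 405 CPM, a ratio of 4.76 (4.45 to 5.09), and was found in 6.05% and 29.9% of the cells. Without *elavl3* it was at 292 and 359 CPM, a ratio of 1.23. *rrm1*, the large subunit of ribonucleotide reductase, had ratios of 3.22 and 1.296, and *tyms*, the thymidylate synthase, 3.36 and 0.88 (0.76 to 1.02). *dut* was therefore among the members with the widest gap between cells with and without *elavl3*.

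*rrm2*, the small subunit of ribonucleotide reductase, was counted under 2 identifiers that went opposite ways over all cells. ENSDARG00000078069 was at 238 CPM in the sibling library and 545 CPM in the mutant one, the highest ratio of all members at 2.29 (2.23 to 2.36). ENSDARG00000020711 was at 128 and 53.6 CPM, the lowest ratio of all members at 0.42 (0.40 to 0.44). The latter took 34.9% of the *rrm2* UMIs in the sibling (34.0 to 35.9, Clopper-Pearson) and 8.95% in the mutant library (8.55 to 9.36). Its share was lower in the mutant library in each of the 13 cell gates plotted, from radial glia (35.9% and 10.2%) to synaptic neurons (37.0% and 7.38%), with overlapping intervals in cartilage. Of the gates not plotted, endothelium went the other way (4.17% and 6.67%), on 24 sibling and 15 mutant *rrm2* UMIs. The rest had the lower share in the mutant library, as in epidermis (38.9% and 0.50%). Whether the counting could move reads between these identifiers, or whether the larvae of the libraries differed at them, was not tested, so their separate ratios are uncertain. In cells with *elavl3*, ENSDARG00000078069 was at 126.5 and 607 CPM, a ratio of 4.80 (4.54 to 5.07). ENSDARG00000020711 was at 68.4 and 53.4 CPM there, a ratio of 0.78 (0.71 to 0.86). Summed, the *rrm2* UMIs had ratios of 1.64 over all cells, 3.39 with *elavl3* and 1.13 without it. The members without either identifier had ratios of 1.58, 3.27 and 1.15, so the set did not rest on them.

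**Figure D2:**
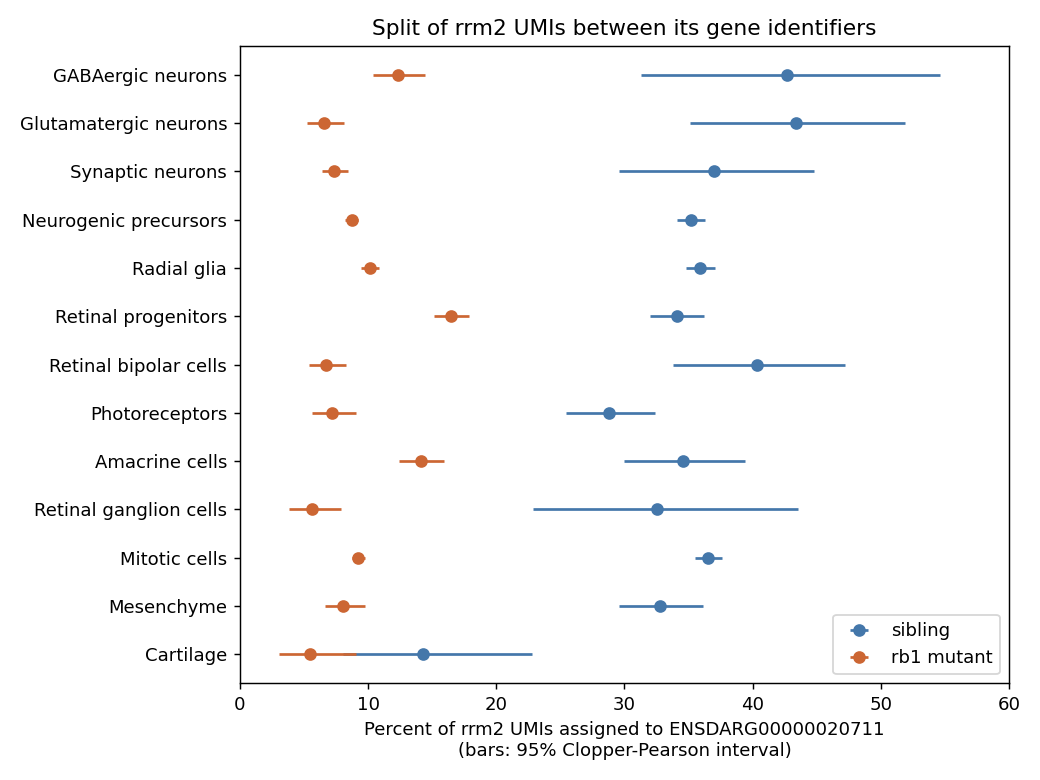
The percentage of *rrm2* UMIs assigned to ENSDARG00000020711 is plotted per cell gate for the sibling (blue) and the *rb1* mutant library (orange), with Clopper-Pearson 95% intervals. Gates with few *rrm2* UMIs, epidermis, and microglia and macrophages are left out. The mutant points lie to the left of the sibling points in every gate shown, for example 10.2% against 35.9% in radial glia, and only in cartilage do the intervals overlap.

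Chromatin assembly and methylation had a ratio of 3.07 in cells with *elavl3* and 1.22 without it. *chaf1a*, the large subunit of the histone chaperone CAF-1, was at 26.1 and 102 CPM with *elavl3*, a ratio of 3.91 (3.45 to 4.43). *uhrf1*, which brings the maintenance methyltransferase to replicated DNA, was at 8.90 and 21.1 CPM, a ratio of 2.37, and that methyltransferase, *dnmt1*, had a ratio of 2.16 (1.82 to 2.57). *chaf1b*, the partner of *chaf1a*, had a ratio of 2.56. Histone mRNA was represented by *slbp*, which binds the stem-loop of replication-dependent histone mRNAs. It was at 44.9 and 129 CPM with *elavl3*, a ratio of 2.88 (2.61 to 3.17), and at 70.7 and 74.0 CPM without it, a ratio of 1.05 (0.97 to 1.13). All 9 roles were higher in the mutant library in cells with *elavl3*, between 2.72 and 3.72, and lay between 1.02 and 1.35 in cells without it.

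The genes at the ends of the range over all cells were partly the same. Besides the *rrm2* identifiers, *prim2* was at 24.99 and 56.8 CPM over all cells, a ratio of 2.27 (2.09 to 2.48), and *cdc6* at 12.2 and 25.9 CPM, a ratio of 2.12. The lowest apart from *rrm2* were *mcm3*, at 29.8 and 32.6 CPM with a ratio of 1.095 (0.9997 to 1.2004), and *gins1*, at 9.90 and 10.9 CPM with a ratio of 1.102 (0.94 to 1.29). The intervals of *mcm3* and *gins1* reached below 1, and they were the only members whose interval over all cells spanned 1.

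Cells were then gated by marker genes that hold no member of the set, and a cell could meet several gates. With the filters and gates used here, the largest ratios among gates with at least 50 cells were those of neurons. In cells with at least 4 of 9 synaptic markers, here called synaptic neurons, the sum was 290 CPM in 2544 sibling cells and 1881 CPM in 2499 mutant cells, a ratio of 6.49 (6.23 to 6.78). All 39 genes had the higher CPM in the mutant library there, and 38 had an interval above 1. Of the 8759 genes with at least 100 UMIs in these cells, 32.9% and 15.7% did so. The 39 were counted without that minimum, which 29 of them met. The ratio of 6.49 depended on which barcodes were kept. It was 3.32 without upper limits on genes and UMIs and 2.48 with all deposited barcodes, and 4.77 without doublet removal and 5.25 after thinning.

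GABAergic neurons, which make the inhibitory transmitter GABA, had 319 CPM in 680 sibling cells and 2751 CPM in 551 mutant cells, a ratio of 8.62 (7.98 to 9.32). *dut* accounted for 27 sibling and 863 mutant UMIs in this gate, and *pcna* for 68 and 934. In glutamatergic neurons the sum was 390 CPM in 1068 sibling and 2245 CPM in 792 mutant cells, a ratio of 5.76 (5.44 to 6.11). This gate needed 1 of 4 markers, and the GABAergic gate 2 of 4. Among cells with *elavl3* the ratios were 8.77 (8.09 to 9.52) in GABAergic and 9.06 (8.40 to 9.79) in glutamatergic neurons. Among those without it they were 7.14 and 1.76, with sibling levels of 350 and 957 CPM. All 39 genes were at the higher CPM in the mutant library in both gates, beside 35.6% of all genes in GABAergic and 35.7% in glutamatergic neurons. Intervals above 1 numbered 34 and 36 of the 39, beside 16.2% and 14.2% of all genes. Here all genes means the 4447 and 5793 with at least 100 UMIs in the gate. The 39 were counted without that minimum, which 21 met in GABAergic and 20 in glutamatergic neurons. The ratios of the sum also moved with the barcodes and gates. With all deposited barcodes they were 3.55 in GABAergic and 3.16 in glutamatergic neurons, and in cells that met no other gate 11.4 and 4.85. Demanding 1 marker more gave 6.21 and 8.23. The 39 ratios were far from even, since *rfc1* was at 1.77 (1.21 to 2.61) in GABAergic neurons and *chaf1a* at 20.4 (11.2 to 41.6).

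Gates for retinal neurons showed the same direction. The paper also lists *pou4f1* and *pou4f2*, markers of the ganglion cell gate here, for a midbrain and thalamus cluster. It lists *tfap2e*, a marker of the amacrine gate here, for the optic tectum. Whether these gates held cells from outside the retina was not tested. Bipolar cells, the interneurons between photoreceptors and ganglion cells, had 767 CPM in 942 sibling and 3372 CPM in 881 mutant cells, a ratio of 4.39 (4.14 to 4.67). Amacrine cells, inhibitory interneurons, had 839 and 2735 CPM, a ratio of 3.26 (3.09 to 3.43). Retinal ganglion cells, the output neurons, had 475 and 1897 CPM, a ratio of 3.995 (3.66 to 4.36). The size of these ratios depended strongly on the barcodes and gates. In bipolar cells it was 1.95 without upper limits, 2.07 with all deposited barcodes, 8.12 after thinning and 10.9 with 1 marker more. In amacrine cells it was 1.82, 1.89, 4.35 and 8.22 under the same settings, and in ganglion cells 2.73, 2.26, 4.63 and 4.83. In cells of no other gate the ratios were 9.65 in bipolar, 3.42 in amacrine and 1.81 in ganglion cells, so the mutant library was higher under each of these settings. Few bipolar cells carried *elavl3*, 7.32% in the sibling library against 8.29% in the mutant one. Those without it had 701 and 3258 CPM, a ratio of 4.65 (4.34 to 4.97), so the difference was not limited to cells with *elavl3*. Median depth also differed in bipolar cells, at 1357 UMIs in the sibling library and 2081 UMIs in the mutant one. Photoreceptors, at 1868 and 2286 CPM, had a ratio of 1.22 (1.17 to 1.28), which was 2.65 (2.45 to 2.87) with 1 marker more and 2.69 in cells of no other gate.

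Progenitor gates had high levels in both libraries, and their ratios were closer to 1 than those of neurons when all cells of a gate were summed. Radial glia, the neural stem cells of the fish brain, had 6240 CPM in 709 sibling and 5943 CPM in 853 mutant cells, a ratio of 0.95 (0.94 to 0.97). Among their 39 genes 5 intervals lay above 1 and 12 below it, against 13.4% and 17.1% of genes with at least 100 UMIs there. Split by *elavl3*, radial glia had ratios of 1.40 (1.36 to 1.45) with it and 0.85 (0.84 to 0.87) without it. Neurogenic precursors, defined by proneural and delta genes, had 4801 and 5704 CPM, a ratio of 1.19, which separated into 2.34 with *elavl3* and 0.79 without it. In both gates the mutant library was thus higher among cells with *elavl3* and lower among cells without it. Retinal progenitors had 4030 and 5006 CPM, a ratio of 1.24 (1.21 to 1.28), and they were higher in the mutant library in both kinds of cell, at 3.94 (3.57 to 4.37) with *elavl3* and 1.15 (1.11 to 1.19) without it. Among cells that met no other gate the ratio was 3.80 (3.57 to 4.05) in neurogenic precursors, 7.67 (4.49 to 14.2) in retinal progenitors and 0.754 in radial glia. Without upper limits that of retinal progenitors was 0.971.

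Mitotic cells, gated by at least 3 of 16 genes of G2 and M phase, numbered 543 in the sibling library against 1132 in the mutant one. Their replication sum was 6664 CPM in the sibling library and 5768 CPM in the mutant one, a ratio of 0.87 (0.85 to 0.88). Of the 39 genes, 36 had the lower CPM in the mutant library, against 46.8% of genes with at least 100 UMIs there. *elavl3* was carried by 21.7% of sibling and 43.3% of mutant mitotic cells. With it the sums were 5820 and 6115 CPM, a ratio of 1.05 (1.02 to 1.08). Without it they were 6906 and 5496 CPM, a ratio of 0.80 (0.78 to 0.81). *mcm2* was at 81.0 and 31.3 CPM in this gate, a ratio of 0.39 (0.33 to 0.46), and *mcm3* at 63.5 and 22.7 CPM, a ratio of 0.36. The median depth of these cells was 7810 UMIs in the sibling library and 5977.5 UMIs in the mutant one. The sum was higher in the mutant library with all deposited barcodes (1.099) and among mitotic cells that met no other gate (1.12).

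Outside the nervous system, mesenchyme had 1469 CPM in 995 sibling and 1779 CPM in 866 mutant cells, a ratio of 1.21 (1.18 to 1.25), and cartilage had 649 CPM in 425 and 960 CPM in 386 cells, a ratio of 1.48 (1.39 to 1.57). The cartilage ratio was 1.01 (0.97 to 1.06) without upper limits and 1.06 (1.03 to 1.101) with all deposited barcodes, and that of mesenchyme 1.04 (0.99 to 1.08) in cells of no other gate, so neither difference held under every setting. Gates with few cells were read as values only. Skeletal muscle had 1267 CPM in 24 and 4234 CPM in 32 cells, a ratio of 3.34. It stayed above 1 under each setting, with 1.58 without upper limits and 8.86 in cells of no other gate. Microglia and macrophages had 1630 CPM in 32 and 1707 CPM in 22 cells, and endothelium 890 CPM in 32 and 1067 CPM in 16 cells. Epidermis gates were not alike, with *elavl3* in 30.5% of 678 sibling and 6.56% of 61 mutant cells, and their sums were not compared. Red blood cells, which served as a reference for free RNA, had 168 CPM (113 to 240) in 16 sibling cells and 1126 CPM (997 to 1266) in 27 mutant cells. Of the latter 33.3% carried *elavl3*, against 6.25% of the former. In the mutant library the 9 with *elavl3* had 337 CPM (203 to 527) and the 18 without it 1361 CPM (1199 to 1538). Red blood cells of the mutant library were thus above those of the sibling library with these filters, at a ratio of 6.69. It was 6.78 without upper limits, 8.62 thinned and 6.31 with 1 marker more. It fell to 2.28 without doublet removal, 2.11 in cells of no other gate and 0.867 with all deposited barcodes. At least 10 replication genes were found in 2 of the 27 mutant cells and in 0 of the 16 sibling cells. The 16 genes of the mitotic gate summed to 767 CPM in these mutant cells, beside 16.8 CPM in the sibling ones. How far single cells carried the mutant sum was not tested. The part of free RNA or of mixed droplets in the neuronal difference was not tested.

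**Figure D3:**
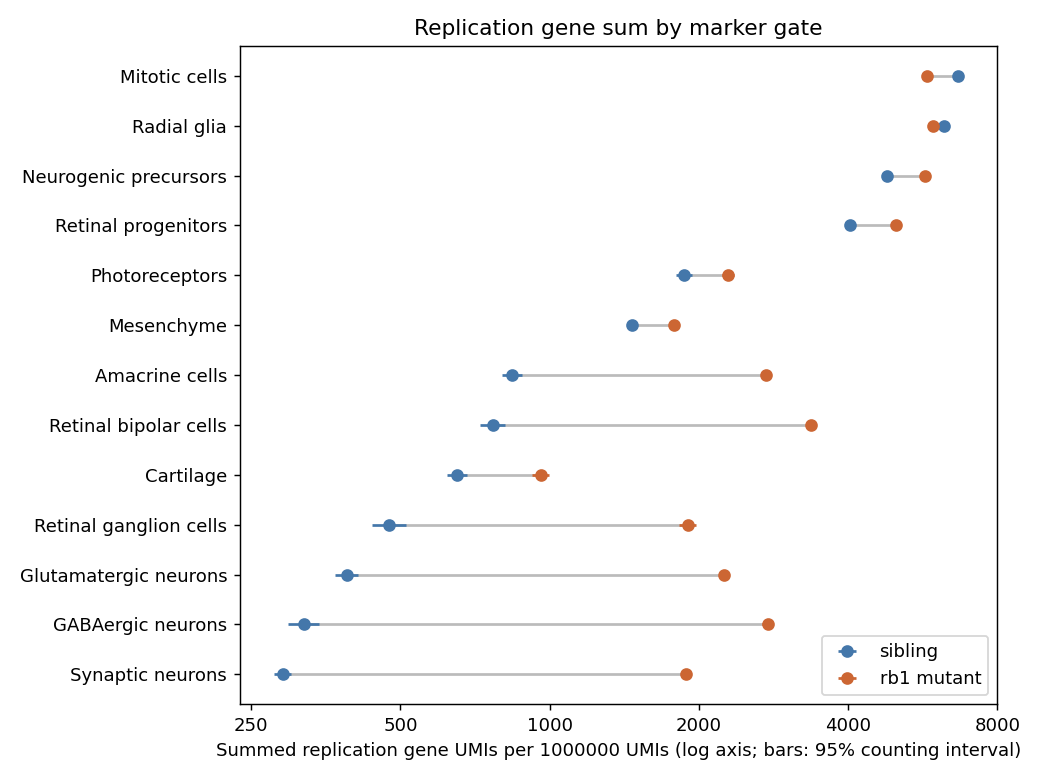
The summed level of the replication genes is plotted per cell gate on a log axis, for the sibling (blue) and the *rb1* mutant library (orange), with 95% counting intervals. Gates with fewer than 50 cells in either library and epidermis are left out. The gap is widest in the neuronal gates, such as 290 against 1881 CPM in synaptic neurons, and narrow or opposite in radial glia and mitotic cells.

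Relative to radial glia of the same library, synaptic neurons had 0.046 times the replication sum in the sibling library and 0.32 times in the mutant library. Among sibling cells all 39 genes were lower in synaptic neurons than in radial glia, 38 of them with an interval below 1, against 25.7% of all genes. For the other one, *cdc45*, there were 0 UMIs in synaptic neurons and 103 UMIs (20.7 CPM) in radial glia. The median ratio was 0.030 over the 38 and 0.029 with *cdc45* at a floor of 3 UMIs. The exception to a large drop was *rfc1*, with 20.9 CPM in synaptic neurons and 31.6 CPM in radial glia, a ratio of 0.66 (0.53 to 0.83). *mcm2*, at 1.06 and 145 CPM, and *dut*, at 10.1 and 668 CPM, had ratios of 0.0073 and 0.015. In the mutant library *dut* was at 277 CPM in synaptic neurons and 578 CPM in radial glia, a ratio of 0.48, and *mcm2* at 19.6 and 128 CPM, a ratio of 0.15. All 39 genes remained lower in synaptic neurons than in radial glia in the mutant library, with a median ratio of 0.33, beside 26.2% of all genes. Mutant neurons thus stood between sibling neurons and radial glia for these genes.

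Cells were also ordered by the number of *elavl3* UMIs, and here the sibling level fell while the mutant level did not. In the sibling library the replication sum went from 2584 CPM in cells without *elavl3* to 2043 CPM with 1 UMI, 961 CPM with 2, 662 CPM with 3 and 889 CPM with 4. In the mutant library the corresponding levels were 2965, 3116, 3224, 3307 and 2806 CPM. With 5 or more *elavl3* UMIs the levels were 669 CPM in 1263 sibling and 3142 CPM in 1581 mutant cells, a ratio of 4.69 (4.54 to 4.86). The sibling level thus dropped up to 3 *elavl3* UMIs and lay between 662 and 889 CPM from there on, while the mutant level lay between 2806 and 3307 CPM over all these steps. Among the cells with 5 or more, those with 10 or more *elavl3* UMIs were at 852 CPM in 407 sibling and 3705 CPM in 493 mutant cells. Median depth differed between these steps. It was 3023.5 UMIs in sibling and 3522 UMIs in mutant cells without *elavl3*. With 1 *elavl3* UMI it was 1381 and 1964 UMIs, and with 5 or more 4355 and 4449 UMIs. The part of depth in this order was not tested.

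By the number of synaptic markers both libraries fell, but at different points. With 0 markers the levels were 3189 CPM in the sibling library and 3558 CPM in the mutant one, a ratio of 1.12. With 3 to 4 markers they were 444 and 2946 CPM, a ratio of 6.63 (6.21 to 7.08), and with 7 to 9 markers 264 and 1213 CPM, a ratio of 4.60 (4.32 to 4.90). In mutant cells with the most synaptic markers the replication sum was therefore lower than in other mutant cells and still above that of the sibling. Median depth at 3 to 4 markers was 1775 UMIs in the sibling library and 2898 UMIs in the mutant one, and at 7 to 9 markers it was 3898 and 3808.5 UMIs.

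**Figure D4:**
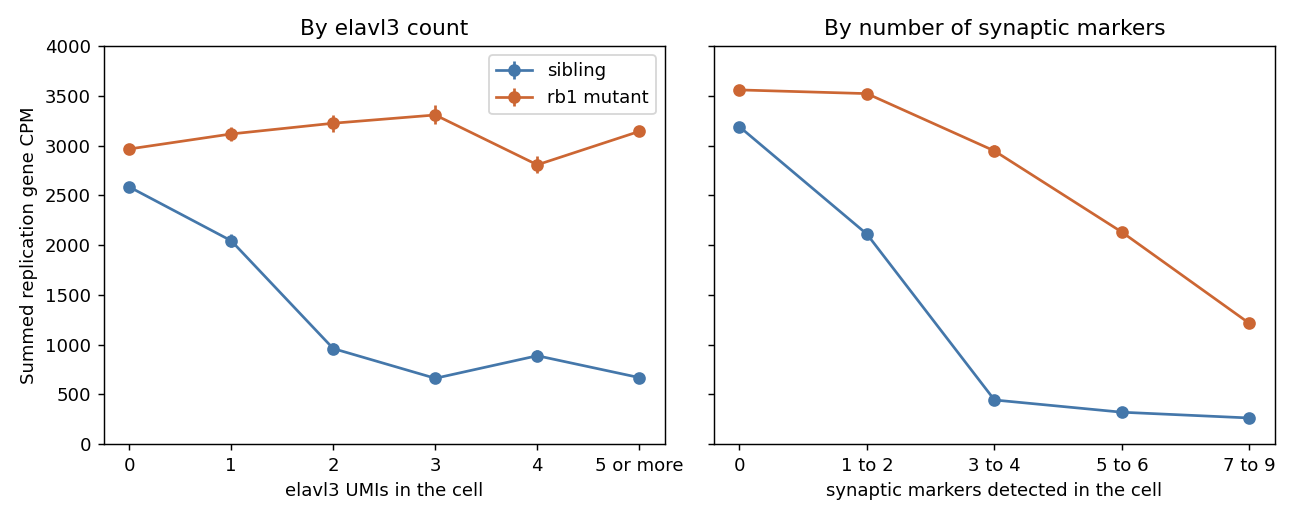
The summed replication gene CPM is plotted against the number of *elavl3* UMIs per cell (left) and against the number of synaptic markers detected per cell (right), for the sibling (blue) and the *rb1* mutant library (orange), with 95% counting intervals. On the left the sibling line drops to 669 CPM at 5 or more UMIs while the mutant line stays near 3000 CPM, and on the right the mutant line falls to 1213 CPM and the sibling line to 264 CPM.

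To see whether the UMIs came from cells with several replication genes, the genes detected per cell were counted after thinning each cell to 1000 UMIs. Cells with fewer UMIs were left out, which removed 477 sibling and 526 mutant cells with *elavl3*. At least 3 replication genes were found in 3.83% (3.16 to 4.60) of 2846 sibling cells and 22.96% (21.5 to 24.4) of 3336 mutant cells with *elavl3*. Unthinned, the shares were 11.1% and 42.2%. In cells without *elavl3* the thinned shares were 13.97% and 27.6%, and the unthinned shares 21.8% and 52.3%. Detection of several replication genes in 1 cell was thus more frequent in the mutant library in both kinds of cell.

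By cell gate, the thinned share with at least 3 genes was 0.72% in sibling and 14.2% in mutant synaptic neurons. It was 0.52% and 21.3% in GABAergic neurons and 1.76% and 35.9% in bipolar cells. Radial glia had 46.2% and 48.8%, mesenchyme 10.9% and 12.5%, and cartilage 6.35% and 5.497%, each with overlapping intervals. The sibling red blood cells had 0 of 16 cells, which allows a share of up to 18.8%, and the mutant ones had 4 of 26. Unthinned, the shares were 7.15% and 34.7% in synaptic neurons, 6.62% and 43.2% in GABAergic neurons, 3.72% and 56.98% in bipolar cells, 60.4% and 81.1% in radial glia, 28.1% and 48.5% in mesenchyme and 19.5% and 42.2% in cartilage. Median depth in cartilage was 5974 UMIs in the sibling library and 5930 UMIs in the mutant one. The mutant shares of these 3 neuronal gates thus lay above that of cartilage when thinned. In the full counts that of synaptic neurons did not. The unthinned mutant intervals of GABAergic neurons (39.0 to 47.4) and cartilage (37.2 to 47.3) overlapped.

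**Figure D5:**
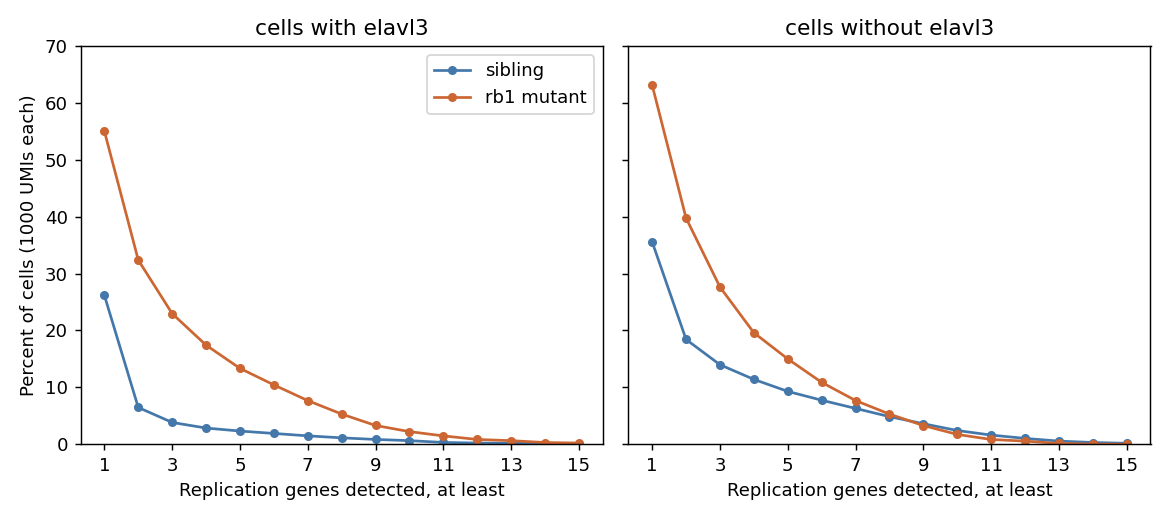
The percentage of cells in which at least a given number of replication genes was detected is plotted for cells with *elavl3* (left) and without it (right), each thinned to 1000 UMIs, in the sibling (blue) and the *rb1* mutant library (orange). At 3 genes the values are 3.83% and 22.96% on the left and 13.97% and 27.6% on the right, and on the right the lines cross where 9 or more genes are required.

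The replication UMIs were also less concentrated in few cells in the mutant library. The 10% of cells with *elavl3* that held the most replication UMIs accounted for 81.5% of them in the sibling library against 65.6% in the mutant one, and the corresponding values without *elavl3* were 85.0% and 63.6%. Cells with *elavl3* and at least 5 replication genes in the full counts numbered 154 in the sibling library against 1136 in the mutant one. Of these, 72.7% and 49.5% met the gate of neurogenic precursors, the largest share in both libraries among the gates counted for them. Only the precursor, mitotic, radial glia, synaptic and GABAergic gates were counted. The mitotic gate was met by 55.2% and 29.6%, the radial glia gate by 51.3% and 20.6%, and the synaptic gate by 13.6% and 45.1%. The shares of the precursor, mitotic and radial glia gates were thus lower in the mutant library and that of the synaptic gate was higher. They were deep in both, with median UMIs of 7829 and 5296 against 3408 and 2987.5 in the other cells with *elavl3*. Their median doublet scores were 0.056 and 0.053, beside 0.048 and 0.046 in the other cells, and the part of undetected doublets was not tested.

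With the cells of the mitotic gate left out, an alternative added once the data had been seen, the ratio was larger in the *elavl3* classes, at 4.63 with *elavl3* and 1.49 without it. It was smaller in synaptic and GABAergic neurons. In synaptic neurons 0.31% of sibling and 6.84% of mutant cells met the mitotic gate, and the remaining cells had 276 and 1362 CPM, a ratio of 4.93 (4.71 to 5.16). In GABAergic neurons the shares were 0.29% and 13.6%, and the remaining cells had 291 (269 to 314) and 1858 (1794 to 1924) CPM, a ratio of 6.38 (5.87 to 6.95). In glutamatergic neurons, bipolar cells and ganglion cells the ratios were 5.89, 5.33 and 4.47. The mitotic gate was met by 1.03%, 1.17% and 1.88% of these sibling cells, and by 8.71%, 24.9% and 8.25% of the mutant ones. The replication genes were thus higher in the mutant library also among neurons outside the mitotic gate, which could still hold UMIs of 1 or 2 mitosis genes.

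A list of 35 other replication genes holds further subunits and regulators of the same steps. Its median ratios with and without *elavl3* were close to those of the members. In cells with *elavl3* 26 of the 28 with at least 100 UMIs were at least 1.5-fold higher in the mutant library, against 6.46% of all genes, none was lower, and their median ratio was 3.00. In cells without *elavl3* 1 of 33 was higher, a share near the 3.45% of all genes, with a median ratio of 1.13. *pola1*, the catalytic subunit of the priming polymerase, was at 7.80 CPM in the sibling library and 39.3 CPM in the mutant one with *elavl3*, a ratio of 5.04, and *nasp*, a histone chaperone, at 56.0 and 201 CPM, a ratio of 3.59. Their ratios without *elavl3* were 1.42 and 1.44. As a sum this list had a ratio of 2.43 with *elavl3* and 1.2006 without it. In sibling cells with *elavl3*, *pole4* held 1458 and *pole3* 545 of its 5007 UMIs. Their ratios there were 1.60 and 1.43, below the list's median, so abundant genes weighed on the sum. In neuronal gates the sum of the list rose less than that of the members. Its single genes were not examined in those gates. The ratio was 2.48 in synaptic, 3.37 in GABAergic and 2.53 in glutamatergic neurons and 2.96 in bipolar cells. That of the members was 6.49, 8.62, 5.76 and 4.39. In mesenchyme and cartilage it was not smaller, at 1.28 and 1.58 beside 1.21 and 1.48 for the members.

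The 16 mitosis genes that define the mitotic gate were higher in both kinds of cell. In cells with *elavl3* all 15 with at least 100 UMIs were at least 1.5-fold higher, with a median ratio of 2.78, and in cells without it 8 of 15 were, with a median ratio of 1.51, beside 6.46% and 3.45% of all genes. Their sum was 561 and 1601 CPM with *elavl3*, a ratio of 2.86, and 906 and 1361 CPM without it, a ratio of 1.502. Replication UMIs per mitosis UMI were 1.70 in the sibling library against 1.96 in the mutant one with *elavl3*, and 2.85 and 2.18 without it. In cells without *elavl3*, replication genes were thus raised less than mitosis genes. In synaptic neurons the mitosis sum was 54.6 CPM in the sibling library and 1126 CPM in the mutant one, and replication UMIs per mitosis UMI were 5.30 and 1.67.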

How the data were processed

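The counts deposited by the authors are UMIs of each gene in each barcode, not normalized, from Cell Ranger (5.1.0 in the submitters' processing notes, 5.0.0 in the file header) with Ensembl release 104 (GRCz11) and EmptyDrops. Dense copies of the counts were not used. Barcodes were kept at 200 to 3000 genes, below 20000 UMIs and with a mitochondrial share below 15%, which left 8150 of 8557 sibling and 8511 of 8799 mutant barcodes. The 7.5% with the highest Scrublet score (scanpy 1.11.5, Python 3.11.15) were then removed in place of DoubletFinder. Retained cells held 28774379 sibling and 31879798 mutant UMIs.

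UMIs were summed per library and class of cells. Cells were gated by 18 lists of 143 markers. Levels have exact Poisson, ratios exact conditional binomial and shares Clopper-Pearson 95% intervals (scipy 1.17.1), which cover counting error only. A limit for 0 cells is 3 counts. Thinning drew 1000 UMIs per cell. A gene was called at a CPM ratio of 1.5 with at least 100 UMIs over both libraries. Every share of all genes was taken over genes with at least 100 UMIs in the cells compared. Members counted by their interval or by the higher or lower CPM had no such minimum. The calculation was tested on simulated data. Up to 2 members per role with the most UMIs, and the 3 highest and 3 lowest ratios over all cells and in cells with *elavl3*, were given in full. Other members and genes named were chosen after their values were seen. The members and lists were chosen with earlier results of these data known. Of 36 other replication symbols, 1 was not matched. No sequences or coordinates were used. Alternatives changed doublet removal, barcode limits, depth, scaling, the count minimum, the fold, the gates and the number of genes detected. Leaving out cells of the mitotic gate or both *rrm2* identifiers was added after seeing the data.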

Additional observations from a re-analysis of the deposited data

Results flagged for a closer look

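*mcm2* and *mcm3* differed in direction between cells with and without *elavl3*. The mutant to sibling ratio of *mcm2* was 2.67 with *elavl3* and 0.90 without it, and that of *mcm3* was 2.58 and 0.83. The difference between the kinds of cell was not tested, since each rests on the same 2 libraries.

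Summed over all cells of a gate, replication genes were lower in mutant radial glia (ratio 0.952) and mitotic cells (ratio 0.865). They were higher in the neuronal gates, and also in radial glia (1.40) and mitotic cells (1.05) with *elavl3*. These differences between gates were not tested.

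Barcodes over the upper limits on genes or UMIs entered only the alternatives without those limits. The replication genes were also higher there in the mutant library, at 1813 CPM in 341 sibling and 2344 CPM in 245 mutant barcodes, a ratio of 1.29 (1.27 to 1.31). Among those with *elavl3* the ratio was 1.18 (1.14 to 1.22), and among those without it 1.35 (1.33 to 1.38). In these barcodes the ratio was thus not larger with *elavl3*, unlike in the retained cells.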

How the results depend on the processing

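No paired analysis was possible because each genotype had 1 library, and no library could be left out. Without doublet removal, without upper limits, with all deposited barcodes, thinned and scaled by the median gene ratio, in that order, the ratio of the sum was 1.63, 1.51, 1.56, 2.16 and 1.73 over all cells. It was 3.11, 2.80, 2.57, 4.06 and 3.68 with *elavl3*, and 1.18, 1.21, 1.27, 1.60 and 1.205 without it. With at least 2 *elavl3* UMIs it was 4.25, and without mitotic cells 4.63 with and 1.49 without *elavl3*. In synaptic neurons it was 4.77 without doublet removal, 3.32 without upper limits, 2.48 with all barcodes, 5.25 thinned, 5.87 with 1 marker more, 4.52 in cells of 1 gate and 5.94 without *rrm2*. Radial glia turned to 1.06 with all barcodes and had 0.875 with 1 marker more, 0.754 in cells of 1 gate and 0.929 without *rrm2*. Mesenchyme had 1.35 without doublet removal, 1.25 without upper limits, 1.27 with all barcodes, 1.04 in cells of 1 gate and 1.17 without *rrm2*. Retinal progenitors turned to 0.971 without upper limits, mitotic cells to 1.099 with all barcodes and 1.12 in cells of 1 gate, and red blood cells to 0.867 with all barcodes.

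With all barcodes and thinned, *mcm2* without *elavl3* turned to 1.003 and 1.33 and *mcm3* to 1.04 and 1.11. *rrm2* ENSDARG00000020711 with *elavl3* turned to 1.06 thinned. The share of sibling cells with *elavl3* and at least 3 members was 12.4% without doublet removal, 13.7% with all barcodes, 3.83% thinned, 4.63% for at least 5 members and 8.36% without mitotic cells. In the mutant library these were 44.9%, 45.7%, 22.96%, 29.4% and 36.1%, and 45.7% with at least 2 *elavl3* UMIs. Without *elavl3* the sibling share was 24.9% without upper limits, 25.8% with all barcodes, 13.97% thinned, 17.1% for 5 members and 15.1% without mitotic cells. The mutant share was 54.1% with all barcodes, 27.6% thinned, 35.1% for 5 members and 47.9% without mitotic cells. Members at least 1.5-fold higher over all cells numbered 12 without upper limits and 29 thinned. With the main filters 4 were 2-fold higher, against 1.25% of all genes. Thinned, 21 were higher with *elavl3*, where fewer genes reached 100 UMIs, and 19 without it. The share of all genes was not computed thinned or without upper limits, so those counts cannot be set beside one. Without *elavl3* 0 were 2-fold higher, against 0.742% of all genes. The cause of these moves was not tested. Depth limits the single genes, as *orc1* rested on 45 UMIs with *elavl3*.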
